A study of Mus musculus with 15 samples.

Results

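Double-negative (DN) cells were set against Sox2+ cells from the same kind of culture, 7 d cultures begun with Sox2+ cells that derive from neuromesodermal progenitors (NMPs) of the mouse. The 5 libraries compared, of 15 in the series, were taken by their labels. They were 1 DN library and 2 Sox2+ libraries from culture in FGF, and 1 DN library and 1 Sox2+ library from culture in FGF/CHIR. All of them come from STR-KI, an embryonic stem cell line that carries mCherry at 1 Sox2 allele and GFP at 1 Tbxt allele (genotype Sox2::mCherry/WT, Tbxt::GFP/WT). Tbxt is the gene of Brachyury and is listed as T in the deposited table. DN cells lacked the signal of either reporter at the sort, and Sox2+ cells were sorted for Sox2::mCherry. NMPs had been made on gelatin in N2B27 medium with 10 ng/mL FGF2 for 48 h, followed by 24 h with FGF2 and 5 µM CHIRON99021 (CHIR), an inhibitor of GSK3 that activates WNT signalling. The factor doses of the 7 d culture, the time at which the starting Sox2+ cells were sorted, whether STR-KI is a single clone, and whether the libraries came from separate cultures are not stated in the sources used here. The DN gate is defined by the absence of 2 reporters and not by a marker of any cell type.

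NMPs are progenitors of the tail end of the embryo that can give spinal cord, marked by Sox2, or paraxial mesoderm, marked by Brachyury. Sox2 is a transcription factor of pluripotent and neural progenitor cells and is switched off in most other cell types. Endoderm, by contrast, is specified by GATA and SOX17 factors. In the mouse, extraembryonic endoderm is known for 2 further features. Its parietal layer secretes a thick basement membrane of laminin and type IV collagen, and its visceral layer takes up maternal proteins through the receptor cubilin and its partners.

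Levels are given in CPM, the share of a library's counts scaled to 1000000 counts. A gene had to reach 5 CPM in 2 or more of the 15 libraries, and the 12943 genes that did were tested with limma on log2(CPM + 1), in 1 fit of all 15 libraries. A difference is DN minus Sox2+ on that log2 scale, with its standard error (SE), and the averaged difference is the mean of the differences in the 2 media. "Rose", "fell", "higher" and "lower" are used of genes with an adjusted p under 0.05. Because 3 of the 4 groups hold 1 library, the p-values rest on the spread of the replicated groups of the series, which may be technical. A group of 1 library has no replicate check. The step of 1 read put 4.37 to 9.73 M reads (M, 1000000) in 4 of the 5 libraries, where 3 reads were at most 0.686 CPM. FGF Sox2+ replicate 2 stood apart with 0.799 M reads, and 3 reads there were 3.76 CPM. These limits cover counting error only, and the fitted difference of a gene at or under 3 reads on 1 side depends on the added 1 CPM.

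The reporter gene Sox2 was at 29.1 CPM in FGF DN cells, against 390.2 and 388 CPM in FGF Sox2+ cells. In the other medium it was at 5.03 CPM in FGF/CHIR DN cells, against 199 CPM in FGF/CHIR Sox2+ cells. Its averaged difference was -4.37 ± 0.30 (adjusted p = 2.39e-06), so the RNA went the way of the gate in both media. T did not follow the gate in the same way. It stood at 20.4 CPM in FGF DN cells, against 4.88 and 8.76 CPM in FGF Sox2+ cells, and at 1.14 CPM in FGF/CHIR DN cells, against 15.4 CPM in FGF/CHIR Sox2+ cells. T was thus higher in DN cells in FGF (1.50 ± 0.44, adjusted p = 0.0363) and lower in DN cells in FGF/CHIR (-2.94 ± 0.51, adjusted p = 0.00661). For scale, the 3 NMP libraries of the series held 387 ± 89.3 CPM of T (SD, n = 3).

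Of the 12943 genes tested, 921 were higher in DN cells in the averaged comparison (7.12%) and 905 were lower (6.99%). In FGF, 856 genes were higher in DN cells (6.61%) and 1187 were lower (9.17%). In FGF/CHIR, where 1 library stood against 1, 292 were higher (2.26%) and 162 were lower (1.25%). These shares of all genes stand beside the list counts given below. With median-of-ratios scaling the split was 1171 higher and 651 lower in the averaged comparison, and 1105 higher and 841 lower in FGF. That scaling moved the median difference of all genes in FGF to 0.01, against -0.12 as deposited. Without FGF Sox2+ replicate 2, 1258 genes passed in FGF, against 2043 with it. A fit of the 5 libraries alone passed 1179 genes in the averaged comparison, and a fit of the 5 libraries with gate and medium as separate terms passed 129, against 1826. In FGF/CHIR, 865 passed without Tbxt-derived DN replicate 1, against 454.

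The FGF and FGF/CHIR comparisons share no library, but they share the estimate of spread of each gene, so their calls are not independent. A gene at 5 CPM in DN libraries alone was tested only if both of them reached it. Of the genes called higher, 155 were called in both media, which is 18.1% of the FGF calls and 53.1% of the FGF/CHIR calls. Of those called lower, 66 were called in both, 5.56% of the FGF calls and 40.7% of the FGF/CHIR calls. Across the 12943 genes the 2 differences had a Pearson r of 0.409 and a Spearman rho of 0.332, given as a description because genes are not replicates. The sign was the same for 63.6% of genes. The difference between the media was itself tested: 219 genes had a larger DN minus Sox2+ difference in FGF/CHIR (1.69%) and 97 had a larger one in FGF (0.749%). That count of 316 was 184 without NMP replicate 3, 668 without FGF Sox2+ replicate 1 and 708 without Tbxt-derived DN replicate 1.

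**Figure D1:**
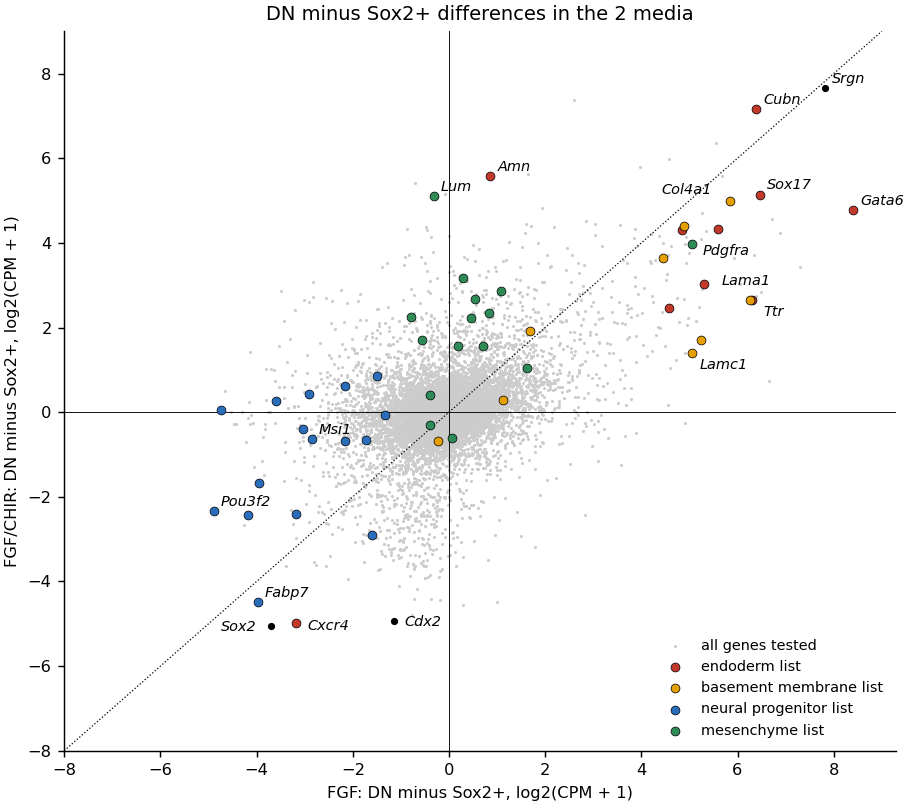
DN minus Sox2+ differences, log2(CPM + 1), in FGF (x axis) and FGF/CHIR (y axis); grey points are the 12943 genes tested, coloured points the tested members of 4 gene lists, black points 3 further named genes, and the dotted line marks equal differences. Most endoderm and basement membrane genes lie above 0 in both media, neural progenitor genes lie low mainly in FGF, and most mesenchyme genes lie near 0 in FGF and above 0 in FGF/CHIR.

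Nearly all tested endoderm genes rose in DN cells, most of them in both media. Of 14 genes on the endoderm list, 10 were tested, 9 were higher and 1 was lower, with a median difference of 4.53 beside -0.10 for all genes, of which 7.12% were higher. In the fit with gate and medium as separate terms, 6 were higher and 1 was lower. Of the 10, 7 passed the filter on low values only through the 2 DN libraries. To be tested, these had to reach 5 CPM in a DN library, and in both where no other library reached it. The count and the agreement of the 2 media are therefore a description and no support. The other 3, Amn, Dab2 and Cxcr4, passed it without the DN libraries. Among the transcription factors, Gata6 was at 459.6 CPM in FGF DN cells, against 0.849 and 0 CPM in FGF Sox2+ cells, and, in FGF/CHIR, 98.98 CPM in DN cells, against 2.67 CPM in Sox2+ cells. Gata6 is a factor that commits cells to primitive endoderm in the mouse blastocyst. The 3 Sox2+ libraries did not reach 3 CPM and both DN libraries were far above them. Sox17, a SOXF factor of endoderm, was at 228 CPM in FGF DN cells, against 0.425 and 3.76 CPM in FGF Sox2+ cells, and, in FGF/CHIR, 37.9 CPM in DN cells, against 0.103 CPM in Sox2+ cells. Its relative Sox7 was at 174 CPM in FGF DN cells, against 0.212 and 1.25 CPM in FGF Sox2+ cells, and, in FGF/CHIR, 22.6 CPM in DN cells, against 0 CPM in Sox2+ cells. Neither gene passed 3.76 CPM in a Sox2+ library, the level of 3 reads in the shallowest one. Gata4 stood at 205 CPM in FGF DN cells, against 1.49 and 6.26 CPM in FGF Sox2+ cells, and, in FGF/CHIR, 33.6 CPM in DN cells, against 0.720 CPM in Sox2+ cells. Foxa2, a pioneer factor of endoderm, stood at 119.9 CPM in FGF DN cells, against 1.70 and 2.50 CPM in FGF Sox2+ cells, and, in FGF/CHIR, 10.5 CPM in DN cells, against 0.411 CPM in Sox2+ cells. For these 5 factors the DN library lay above every Sox2+ library within each medium, and each was called in both media. Gata6, Sox17 and Sox7 were named by a rule that requires this order, so for them it restates the choice and is no support. Averaged differences were 4.96 ± 0.41 for Gata4 (adjusted p = 6.66e-06) and 4.16 ± 0.31 for Foxa2 (adjusted p = 2.79e-06).

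Genes of protein uptake and transport followed. Cubn, which encodes the uptake receptor cubilin, was at 95.2 CPM in FGF DN cells, against 0.318 and 0 CPM in FGF Sox2+ cells, and, in FGF/CHIR, 164 CPM in DN cells, against 0.154 CPM in Sox2+ cells. Its averaged difference was 6.77 ± 0.38 (adjusted p = 3.66e-07) with the added 1 CPM, 8.32 with 0.25 CPM added and 4.96 with 4 CPM added. Amn, the amnionless protein that anchors cubilin in the membrane, stood at 10.7 CPM in FGF DN cells, against 5.95 and 5.01 CPM in FGF Sox2+ cells, and, in FGF/CHIR, 110.2 CPM in DN cells, against 1.34 CPM in Sox2+ cells. The Amn difference was larger in FGF/CHIR than in FGF by 4.71 ± 0.60 (adjusted p = 0.0021). Dab2, an adaptor for this uptake, stood at 711 CPM in FGF DN cells, against 19.7 and 28.8 CPM in FGF Sox2+ cells, and, in FGF/CHIR, 217 CPM in DN cells, against 10.1 CPM in Sox2+ cells. Ttr, the thyroxine and retinol carrier transthyretin, had 147 CPM in FGF DN cells, against 0 and 2.50 CPM in FGF Sox2+ cells, and, in FGF/CHIR, 5.94 CPM in DN cells, against 0.103 CPM in Sox2+ cells. Of the 9 genes that rose, Ttr alone was not called in FGF/CHIR and Amn alone was not called in FGF. The member that fell was Cxcr4, the receptor of the chemokine CXCL12, which neural progenitors also carry. Cxcr4 was at 7.64 CPM in FGF DN cells, against 58.3 and 101 CPM in FGF Sox2+ cells, and, in FGF/CHIR, 2.74 CPM in DN cells, against 117 CPM in Sox2+ cells, a difference of -4.07 ± 0.25 (adjusted p = 7.20e-07). The members outside the test were low: Afp, of the yolk sac and liver, was at 4.54 CPM in FGF DN cells and 0 in the other 4 libraries. Hnf4a was at 7.02 CPM in DN cells of the FGF culture and 1.60 CPM in those of the FGF/CHIR culture, against 0 in all 3 Sox2+ libraries.

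Outside the comparison, levels of the endoderm factors named here were as follows. In the 3 DN libraries derived from Tbxt+ cells, Sox17 and Sox7 were at 0 and Gata6 was between 0.527 and 7.28 CPM. In the 2 Sox2 48 h libraries, Sox2+ cells sorted after 48 h of NMP culture in FGF/CHIR, Gata6 was at 3.79 and 3.43 CPM and Cubn at 0 and 0.457 CPM. The summed level of the endoderm list was 2026 CPM in FGF DN cells, against 89.8 and 150.2 CPM in FGF Sox2+ cells, and, in FGF/CHIR, 700.1 CPM in DN cells, against 135 CPM in Sox2+ cells. It was 29.6 to 177 CPM in the 3 Tbxt-derived DN libraries, 67.7 and 91.3 CPM in the 2 Sox2 48 h libraries, 223 and 256.5 CPM in the 2 Tbxt 48 h libraries and 46.2 to 49.1 CPM in the 3 NMP libraries. The Tbxt 48 h libraries and the highest of the Tbxt-derived DN libraries were thus above all 3 Sox2+ libraries and below both DN libraries. By the levels given above, Cxcr4, the member that fell, made up most of the sum in each Sox2+ library. The ranking is therefore one of the summed list and not of the genes that rose. In bulk RNA, more cells of a type and more RNA per cell cannot be told apart.

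**Figure D2:**
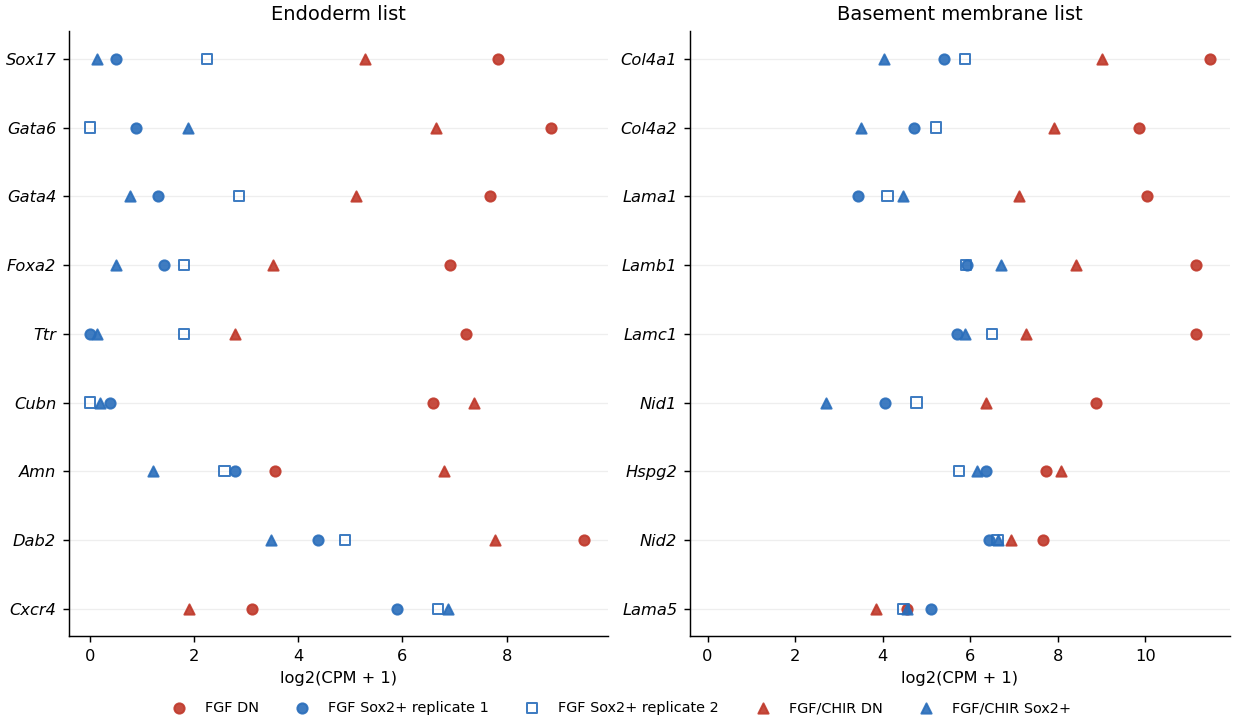
Levels, log2(CPM + 1), of 9 of the 10 tested members of the endoderm list (left) and of the tested members of the basement membrane list (right) in the 5 libraries; red marks DN and blue marks Sox2+, circles and squares are FGF and triangles are FGF/CHIR. The red marks of a medium lie right of its blue marks for every endoderm gene shown but Cxcr4, and 7 of the 9 basement membrane genes were called higher.

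Basement membrane genes rose with them. Of 10 genes listed, 9 were tested and 7 were higher, with a median difference of 3.47, and 0 were lower. In the fit with gate and medium as separate terms, 4 were higher. Col4a1, an alpha chain of type IV collagen, was at 2864 CPM in FGF DN cells, against 41.4 and 57.6 CPM in FGF Sox2+ cells, and, in FGF/CHIR, 516 CPM in DN cells, against 15.3 CPM in Sox2+ cells. Col4a2, its partner chain, was at 922 CPM in FGF DN cells, against 25.3 and 36.3 CPM in FGF Sox2+ cells, and, in FGF/CHIR, 241 CPM in DN cells, against 10.4 CPM in Sox2+ cells. The DN levels of both chains lay far above every Sox2+ library, an order that the rule naming Col4a1 requires. The differences were 5.42 ± 0.23 for Col4a1 (adjusted p = 9.26e-08) and 4.65 ± 0.22 for Col4a2 (adjusted p = 1.33e-07).

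The 2 collagen genes are transcribed in opposite directions from neighbouring starts, so their promoter windows in RefSeq (GRCm38.p6, 250 bases before the start and 50 after) overlap. They are shown because both genes moved together. Capitals mark the 78 bases that the windows share, chr8:11312777-11312854, which run in opposite directions in the 2 lines. The Col4a1 window is chr8:11312777-11313076 on the minus strand and the Col4a2 window is chr8:11312555-11312854 on the plus strand.
Col4a1: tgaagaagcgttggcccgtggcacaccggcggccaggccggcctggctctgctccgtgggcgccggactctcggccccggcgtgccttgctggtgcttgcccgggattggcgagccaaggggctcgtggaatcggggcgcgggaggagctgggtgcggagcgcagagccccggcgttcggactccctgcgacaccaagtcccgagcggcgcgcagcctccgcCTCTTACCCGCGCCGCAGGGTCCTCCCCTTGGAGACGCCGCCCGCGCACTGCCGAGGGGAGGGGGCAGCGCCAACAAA
Col4a2: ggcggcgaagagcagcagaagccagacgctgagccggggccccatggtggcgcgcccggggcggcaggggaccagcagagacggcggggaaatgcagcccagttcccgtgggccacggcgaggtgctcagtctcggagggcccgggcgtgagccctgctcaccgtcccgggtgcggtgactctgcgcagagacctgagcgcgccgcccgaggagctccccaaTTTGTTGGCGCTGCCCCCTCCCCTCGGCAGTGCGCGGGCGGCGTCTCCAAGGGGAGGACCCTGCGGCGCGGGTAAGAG
The annotated starts are 21 bases apart. That of Col4a1, on the minus strand, lies at the higher coordinate, so the annotated genes overlap at their first bases. The files carry no measure of promoter activity, and the overlap is a description of position only.

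The laminin chains of the same membrane had their highest levels in FGF DN cells. Lama1 was at 1049.7 CPM in FGF DN cells, against 9.77 and 16.3 CPM in FGF Sox2+ cells, and, in FGF/CHIR, 138 CPM in DN cells, against 20.97 CPM in Sox2+ cells. Lamb1 was at 2282 CPM in FGF DN cells, against 59.7 and 58.8 CPM in FGF Sox2+ cells, and, in FGF/CHIR, 340.1 CPM in DN cells, against 104 CPM in Sox2+ cells. Lamc1 was at 2277 CPM in FGF DN cells, against 50.96 and 88.9 CPM in FGF Sox2+ cells, and, in FGF/CHIR, 155 CPM in DN cells, against 57.9 CPM in Sox2+ cells. These 3 genes encode the subunits of laminin-111. All 3 rose in the averaged comparison, Lamc1 without passing in FGF/CHIR, and for all 3 the difference was smaller in FGF/CHIR than in FGF. FGF/CHIR minus FGF was -3.61 ± 0.49 for Lama1, -3.54 ± 0.42 for Lamb1 and -3.65 ± 0.53 for Lamc1 (adjusted p = 0.00275, 0.00164 and 0.00358). Nid1, the linker protein nidogen-1, was at 466 CPM in FGF DN cells, against 15.5 and 26.3 CPM in FGF Sox2+ cells, and, in FGF/CHIR, 80.7 CPM in DN cells, against 5.55 CPM in Sox2+ cells. Hspg2, the proteoglycan perlecan, was at 212 CPM in FGF DN cells, against 80.9 and 52.6 CPM in FGF Sox2+ cells, and, in FGF/CHIR, 266 CPM in DN cells, against 69.7 CPM in Sox2+ cells. Both rose, Hspg2 in FGF but not in FGF/CHIR alone, by 4.05 ± 0.26 for Nid1 and 1.80 ± 0.34 for Hspg2. The 2 tested members that did not pass the averaged test were Nid2, with a difference of 0.70 ± 0.24 and a call of higher in FGF, and Lama5, with -0.46 ± 0.42. Sparc, a matrix protein that binds collagen, was at 8327 CPM in FGF DN cells, against 331 and 373 CPM in FGF Sox2+ cells, and, in FGF/CHIR, 1946 CPM in DN cells, against 148 CPM in Sox2+ cells, a difference of 4.14 ± 0.22 (adjusted p = 3.66e-07). In Tbxt-derived DN cells Col4a1 was at 138 to 194 CPM and Lama1 at 8.74 to 11.5 CPM.

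The largest averaged rises, by the rule for named genes, also included 7 genes of other kinds. Srgn, the core protein of the proteoglycan serglycin, was at 843 CPM in FGF DN cells, against 0.637 and 7.51 CPM in FGF Sox2+ cells, and, in FGF/CHIR, 222 CPM in DN cells, against 0.103 CPM in Sox2+ cells. It had the largest difference of the named genes, 7.74 ± 0.54 (adjusted p = 1.79e-06). Foxq1, a forkhead transcription factor, was at 154 CPM in FGF DN cells, against 2.12 and 2.50 CPM in FGF Sox2+ cells, and, in FGF/CHIR, 124 CPM in DN cells, against 0.514 CPM in Sox2+ cells. Ctsh, a lysosomal protease of the cathepsin family, was at 113 CPM in FGF DN cells, against 0.425 and 2.50 CPM in FGF Sox2+ cells, and, in FGF/CHIR, 61.5 CPM in DN cells, against 0.308 CPM in Sox2+ cells. S100g, the calcium-binding protein calbindin-D9k, was at 77.2 CPM in FGF DN cells, against 0.849 and 1.25 CPM in FGF Sox2+ cells, and, in FGF/CHIR, 30.6 CPM in DN cells, against 0.206 CPM in Sox2+ cells. The water channel gene Aqp8 was at 25.2 CPM in FGF DN cells, against 0.212 and 0 CPM in FGF Sox2+ cells, and, in FGF/CHIR, 68.8 CPM in DN cells, against 0.103 CPM in Sox2+ cells. Glipr1 was at 424 CPM in FGF DN cells, against 1.06 and 2.50 CPM in FGF Sox2+ cells, and, in FGF/CHIR, 36.1 CPM in DN cells, against 2.47 CPM in Sox2+ cells. FGF/CHIR minus FGF was -3.88 ± 0.81 for it (adjusted p = 0.0267). All 6 were at or under 7.51 CPM in the 3 Sox2+ libraries and were called in both media. The rule took genes with DN above every Sox2+ library and at least 20 CPM in DN cells in both media. Their shared direction in the 2 media thus follows from the choice and is no support. Dppa5a, an RNA-binding protein of pluripotent cells, was at 35.9 CPM in FGF DN cells, against 27.3 and 0.313 CPM in FGF Sox2+ cells, and, in FGF/CHIR, 264 CPM in DN cells, against 0.583 CPM in Sox2+ cells. It rose in the averaged comparison (4.99 ± 0.96, adjusted p = 0.00791) and in FGF/CHIR, and did not pass in FGF, where Sox2+ replicate 1 was close to the DN library. The fit of the 5 libraries alone gave it an adjusted p of 0.549. Dppa5a has near-identical copies in the genome, and how the authors' counting split reads among them is not given, so its level is uncertain.

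Epithelial genes were higher in DN cells, 9 of 11 tested, with a median of 1.73 and 0 lower. The fit of the 5 libraries alone left 5 higher, and the fit with gate and medium as separate terms left 1. Of the 11, 2 passed the filter on low values only through the DN libraries. Krt8, a keratin of simple epithelia, was at 461 CPM in FGF DN cells, against 132 and 102 CPM in FGF Sox2+ cells, and, in FGF/CHIR, 115 CPM in DN cells, against 12.7 CPM in Sox2+ cells. Its partner Krt18 was at 316 CPM in FGF DN cells, against 122.9 and 68.9 CPM in FGF Sox2+ cells, and, in FGF/CHIR, 115 CPM in DN cells, against 14.4 CPM in Sox2+ cells. Cdh1, the adhesion protein E-cadherin, was at 141 CPM in FGF DN cells, against 91.5 and 41.3 CPM in FGF Sox2+ cells, and, in FGF/CHIR, 101 CPM in DN cells, against 7.401 CPM in Sox2+ cells. The tight junction gene Cldn7 was at 85.4 CPM in FGF DN cells, against 44.6 and 16.3 CPM in FGF Sox2+ cells, and, in FGF/CHIR, 35.2 CPM in DN cells, against 4.21 CPM in Sox2+ cells. Averaged differences were 2.53 ± 0.25 for Krt8, 2.34 ± 0.37 for Krt18, 2.39 ± 0.35 for Cdh1 and 2.21 ± 0.40 for Cldn7. Of the members, 4 were called higher in FGF and 7 in FGF/CHIR, and for 0 of the 11 did the difference between media pass the test (limma, 3 at an unadjusted p under 0.05). The FGF count was 1 without FGF Sox2+ replicate 2 and 9 without replicate 1, and the FGF/CHIR count was 3 in the fit of the 5 libraries alone. The summed level of the list in the 3 Tbxt-derived DN libraries was 3.76 to 5.53 CPM.

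Pluripotency genes did not move as a block: of 14 tested, 4 were higher and 2 were lower. The fit with gate and medium as separate terms left 0 higher and 1 lower. Of the 14, 2 passed the filter on low values only through the DN libraries. Pou5f1, the core pluripotency factor Oct4, was at 70.3 CPM in FGF DN cells, against 30.1 and 10.02 CPM in FGF Sox2+ cells, and, in FGF/CHIR, 52.5 CPM in DN cells, against 0.874 CPM in Sox2+ cells. It rose by 3.39 ± 0.42 (adjusted p = 2.04e-04). Klf4, a Kruppel-like factor, was at 292 CPM in FGF DN cells, against 7.33 and 12.5 CPM in FGF Sox2+ cells, and, in FGF/CHIR, 56.9 CPM in DN cells, against 12.3 CPM in Sox2+ cells. Klf5 was at 305 CPM in FGF DN cells, against 134 and 90.1 CPM in FGF Sox2+ cells, and, in FGF/CHIR, 233 CPM in DN cells, against 32.1 CPM in Sox2+ cells. These 3 and Dppa5a made up the rises. Lin28a, an RNA-binding protein that blocks let-7 maturation, was at 119.7 CPM in FGF DN cells, against 145 and 120.4 CPM in FGF Sox2+ cells, and, in FGF/CHIR, 15.2 CPM in DN cells, against 117 CPM in Sox2+ cells, and it fell in FGF/CHIR and not in FGF, a difference between media of -2.73 ± 0.32 (adjusted p = 0.00164). Lin28b fell with it in the averaged comparison (-1.67 ± 0.40, adjusted p = 0.0189). Nanog did not pass the averaged test and was at 21.7 CPM in FGF DN cells, against 5.73 and 0 CPM in FGF Sox2+ cells, and, in FGF/CHIR, 0.229 CPM in DN cells, against 0 CPM in Sox2+ cells. The 2 FGF Sox2+ libraries differed from each other here: Zfp42 was at 71.3 and 18.8 CPM and Dppa4 at 71.98 and 17.5 CPM in replicates 1 and 2. Without FGF Sox2+ replicate 1 the count of rises was 9, against 4 with it.

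Neural progenitor genes were lower in DN cells. Of 18 genes listed, 16 were tested and 10 were lower, with a median of -1.73, and 0 were higher, beside 6.99% lower among all genes. The fit with gate and medium as separate terms left 2 lower. Fabp7, a lipid-binding protein of radial glia, was at 24.8 CPM in FGF DN cells, against 287 and 571 CPM in FGF Sox2+ cells, and, in FGF/CHIR, 0 CPM in DN cells, against 21.4 CPM in Sox2+ cells. Hes5, a target and effector of Notch in neural progenitors, was at 6.60 CPM in FGF DN cells, against 94.5 and 198 CPM in FGF Sox2+ cells, and, in FGF/CHIR, 0.229 CPM in DN cells, against 5.65 CPM in Sox2+ cells. Pou3f2, a POU factor of neural cells, was at 3.51 CPM in FGF DN cells, against 109 and 162 CPM in FGF Sox2+ cells, and, in FGF/CHIR, 0.686 CPM in DN cells, against 7.50 CPM in Sox2+ cells. Sox1, a relative of Sox2 that marks the neural plate, was at 14.7 CPM in FGF DN cells, against 112 and 179 CPM in FGF Sox2+ cells, and, in FGF/CHIR, 0.229 CPM in DN cells, against 5.55 CPM in Sox2+ cells. Sox3, the third SOXB1 gene, was at 38.4 CPM in FGF DN cells, against 128 and 109 CPM in FGF Sox2+ cells, and, in FGF/CHIR, 3.66 CPM in DN cells, against 33.8 CPM in Sox2+ cells. For these 5 genes DN cells lay below every Sox2+ library within each medium and the gene was called in both media. The rule that named Fabp7 requires this order. The differences were -4.23 ± 0.41 for Fabp7, -3.61 ± 0.31 for Pou3f2, -3.31 ± 0.32 for Hes5 and -2.80 ± 0.34 for Sox1 (adjusted p = 2.50e-05, 9.00e-06, 2.50e-05 and 1.49e-04).

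Further neural genes fell in FGF and did not pass in FGF/CHIR. Pax6, a factor of the neural tube and brain, was at 5.78 CPM in FGF DN cells, against 95.3 and 68.9 CPM in FGF Sox2+ cells, and, in FGF/CHIR, 0.457 CPM in DN cells, against 0.206 CPM in Sox2+ cells. Pou3f3 was at 2.68 CPM in FGF DN cells, against 70.1 and 136 CPM in FGF Sox2+ cells, and, in FGF/CHIR, 0.457 CPM in DN cells, against 0.411 CPM in Sox2+ cells. Zic1, a zinc finger factor of the dorsal neural tube that somitic mesoderm also expresses, was at 12.8 CPM in FGF DN cells, against 62.2 and 170.3 CPM in FGF Sox2+ cells, and, in FGF/CHIR, 465 CPM in DN cells, against 347 CPM in Sox2+ cells. Msi1, an RNA-binding protein of neural stem cells, was at 47.5 CPM in FGF DN cells, against 299 and 408 CPM in FGF Sox2+ cells, and, in FGF/CHIR, 65.4 CPM in DN cells, against 103 CPM in Sox2+ cells. For each of the 4 the difference in FGF/CHIR was higher than that in FGF, by 3.87 ± 0.84 for Pax6, 4.79 ± 0.79 for Pou3f3, 3.34 ± 0.73 for Zic1 and 2.21 ± 0.39 for Msi1 (adjusted p = 0.0313, 0.00841, 0.0405 and 0.0118). Pax6 and Pou3f3 were below the added 1 CPM in both gates in FGF/CHIR, where a difference was not detectable at this depth. In FGF, 12 of the 16 were lower, and in FGF/CHIR 5. The summed list stood at 248 CPM in FGF DN cells, against 1654 and 2442 CPM in FGF Sox2+ cells, and, in FGF/CHIR, at 638 CPM in DN cells, against 686 CPM in Sox2+ cells. Zic1 alone made up 465 CPM of the FGF/CHIR DN sum and 347 CPM of the FGF/CHIR Sox2+ sum. The near-equal sums in FGF/CHIR thus do not describe the rest of the list.

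Neuronal genes were lower as well, 6 of 11 tested and 0 higher. Neurog2, which starts neurogenesis, was at 0.413 CPM in FGF DN cells, against 4.67 and 37.6 CPM in FGF Sox2+ cells, and, in FGF/CHIR, 0.229 CPM in DN cells, against 14.4 CPM in Sox2+ cells. Map2, a microtubule protein of neurons, was at 2.06 CPM in FGF DN cells, against 25.7 and 76.4 CPM in FGF Sox2+ cells, and, in FGF/CHIR, 2.06 CPM in DN cells, against 5.86 CPM in Sox2+ cells. Their differences were -3.52 ± 0.60 and -2.53 ± 0.43. The fit with gate and medium as separate terms left 0 of the 11 lower. The replicates of FGF Sox2+ cells differed for Tubb3, a neuronal tubulin, which was at 15.1 CPM in FGF DN cells, against 57.5 and 263 CPM in FGF Sox2+ cells. Tubb3 did not pass in the averaged comparison, which also takes in the FGF/CHIR libraries (-1.01 ± 0.82). Of the neural crest genes 3 of 10 tested were lower and 0 higher. Ednrb, an endothelin receptor, was at 1.65 CPM in FGF DN cells, against 46.3 and 53.8 CPM in FGF Sox2+ cells, and, in FGF/CHIR, 0 CPM in DN cells, against 5.35 CPM in Sox2+ cells. Of the glial list, 1 of 7 tested genes was higher, and this was the matrix gene Tnc. Gfap and Olig1, which define glia, were at 0.103 CPM or less in the 5 libraries.

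Most of the tested Notch pathway genes fell. Of 18 listed, 16 were tested and 10 were lower, with a median of -1.23 and 0 higher. In FGF 11 were lower and in FGF/CHIR 3. The fit with gate and medium as separate terms left 1 lower. Among the ligands, Dll1 was at 4.95 CPM in FGF DN cells, against 35.7 and 78.9 CPM in FGF Sox2+ cells, and, in FGF/CHIR, 0.914 CPM in DN cells, against 13.98 CPM in Sox2+ cells. Dll3 was at 2.89 CPM in FGF DN cells, against 12.3 and 48.8 CPM in FGF Sox2+ cells, and, in FGF/CHIR, 1.14 CPM in DN cells, against 9.97 CPM in Sox2+ cells. The receptor Notch1 was at 15.1 CPM in FGF DN cells, against 57.3 and 91.4 CPM in FGF Sox2+ cells, and, in FGF/CHIR, 14.4 CPM in DN cells, against 22.2 CPM in Sox2+ cells. Of the modifiers, Mfng, a Fringe glycosyltransferase, was at 1.65 CPM in FGF DN cells, against 6.37 and 22.5 CPM in FGF Sox2+ cells, and, in FGF/CHIR, 0 CPM in DN cells, against 5.55 CPM in Sox2+ cells. Nrarp, a target and inhibitor of the pathway, was at 8.67 CPM in FGF DN cells, against 36.1 and 62.6 CPM in FGF Sox2+ cells, and, in FGF/CHIR, 1.83 CPM in DN cells, against 6.78 CPM in Sox2+ cells. The differences of Dll1, Dll3 and Mfng were -3.08 ± 0.45, -2.54 ± 0.42 and -2.51 ± 0.42 (adjusted p = 8.14e-04, 0.00172 and 0.00158). Rbpj, the DNA-binding partner of cleaved Notch, did not pass (-0.46 ± 0.20).

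The promoter window of Hes5 (RefSeq, GRCm38.p6, chr4:154960673-154960972, plus strand) is shown because it holds the RBPJ motif GTGGGAA, in capitals, on both strands.
Hes5: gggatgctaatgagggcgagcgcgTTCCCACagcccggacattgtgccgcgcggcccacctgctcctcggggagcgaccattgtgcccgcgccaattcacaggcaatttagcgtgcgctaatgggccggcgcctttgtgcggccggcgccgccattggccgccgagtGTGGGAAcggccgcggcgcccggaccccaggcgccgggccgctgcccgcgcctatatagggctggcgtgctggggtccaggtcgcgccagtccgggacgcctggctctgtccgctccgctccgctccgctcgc
The match on the strand of the gene begins 83 bases before its start, and the match on the other strand lies 226 bases before it. Of the 18 Notch genes, 14 had a promoter in the table and 3 held the motif on either strand (Hes5, Hey2 and Lfng), while 6.38% of all 32851 promoters of 300 bases held it. These are matches of letters and not measured binding.

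**Figure D3:**
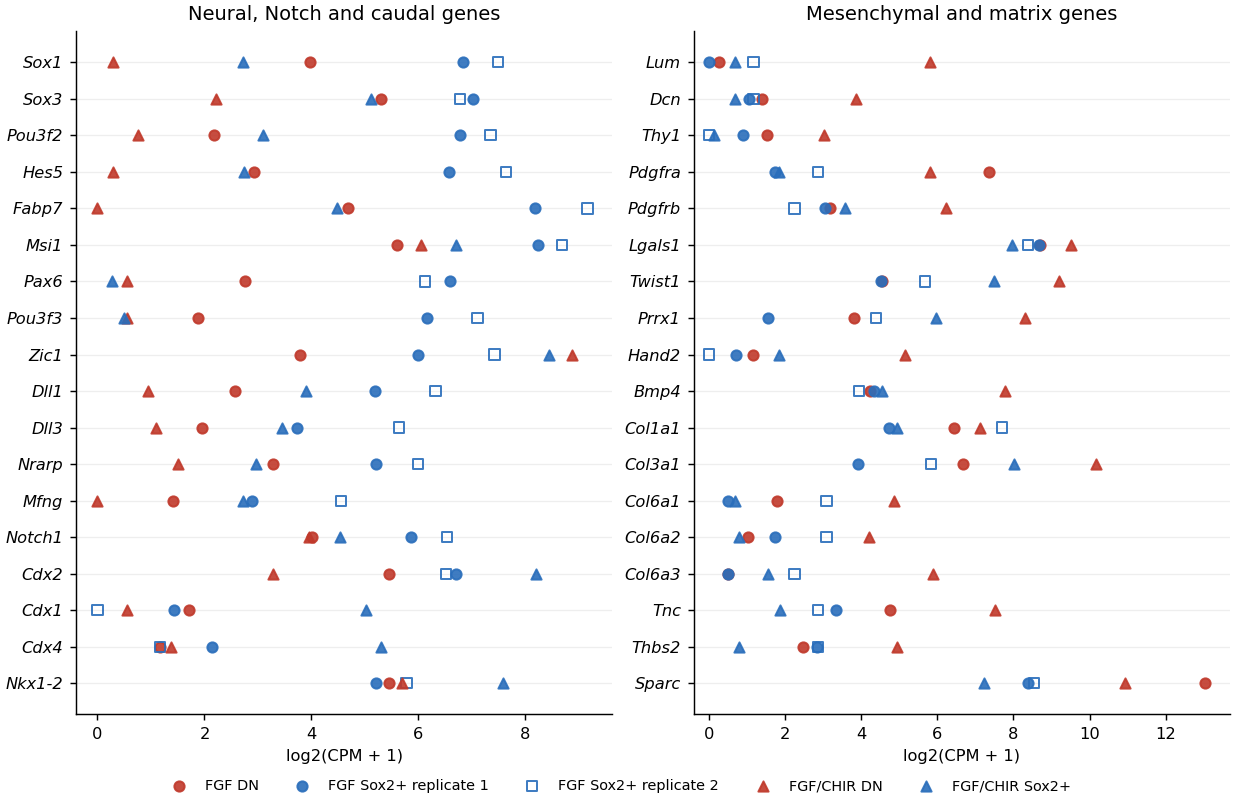
Levels, log2(CPM + 1), in the 5 libraries of neural, Notch and caudal genes (left) and of mesenchymal and matrix genes (right); red marks DN and blue marks Sox2+, circles and squares are FGF and triangles are FGF/CHIR. Red marks lie left of the blue marks of their medium for Sox1 to Msi1 and for the Notch genes, and the red triangle lies right of the blue one for every gene on the right.

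Of the genes of the NMP and of the caudal embryo, 7 of 14 tested were lower and 2 higher in the averaged comparison. In FGF 3 were lower and 3 higher (median 0.42), and in FGF/CHIR 6 were lower and 1 higher (median -1.28). The fit of the 5 libraries alone left 3 lower and 1 higher in the averaged comparison, and the fit with gate and medium as separate terms left 0 of either. Cdx2, a homeobox factor of the tail end, was at 42.9 CPM in FGF DN cells, against 103 and 90.1 CPM in FGF Sox2+ cells, and, in FGF/CHIR, 8.69 CPM in DN cells, against 294 CPM in Sox2+ cells. Cdx1 was at 2.27 CPM in FGF DN cells, against 1.70 and 0 CPM in FGF Sox2+ cells, and, in FGF/CHIR, 0.457 CPM in DN cells, against 31.5 CPM in Sox2+ cells. Cdx4 was at 1.24 CPM in FGF DN cells, against 3.40 and 1.25 CPM in FGF Sox2+ cells, and, in FGF/CHIR, 1.60 CPM in DN cells, against 38.2 CPM in Sox2+ cells. The differences were lower in FGF/CHIR than in FGF, and FGF/CHIR minus FGF was -3.78 ± 0.41 for Cdx2, -5.47 ± 0.73 for Cdx1 and -3.42 ± 0.80 for Cdx4 (adjusted p = 0.00122, 0.00275 and 0.0427). With a pseudocount of 0.25 the Cdx1 test gave an adjusted p of 0.0519. Nkx1-2, a factor of the NMP region, was at 42.7 CPM in FGF DN cells, against 36.1 and 53.8 CPM in FGF Sox2+ cells, and, in FGF/CHIR, 50.5 CPM in DN cells, against 189 CPM in Sox2+ cells. The 2 members that rose were Cyp26a1 and Mixl1. Cyp26a1, an enzyme that degrades retinoic acid, was at 26.2 CPM in FGF DN cells, against 5.73 and 5.01 CPM in FGF Sox2+ cells, and, in FGF/CHIR, 10.97 CPM in DN cells, against 0.103 CPM in Sox2+ cells. Mixl1, a homeobox factor of the primitive streak, was at 12.6 CPM in FGF DN cells, against 1.49 and 0 CPM in FGF Sox2+ cells, and, in FGF/CHIR, 0.229 CPM in DN cells, against 0.411 CPM in Sox2+ cells. Mixl1 was called in FGF and not in FGF/CHIR. Of the presomitic mesoderm genes 4 of 7 tested were lower, 3 of them the Notch genes Dll1, Dll3 and Lfng, and 1 was higher. Among the genes that define that tissue, Msgn1 was at 0 in all 5 libraries, and Tbx6 was at most 0.413 CPM.

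Other genes named for their averaged fall were of several kinds. Foxb1, a forkhead factor of the neural tube, was at 18.8 CPM in FGF DN cells, against 31.4 and 31.3 CPM in FGF Sox2+ cells, and, in FGF/CHIR, 3.20 CPM in DN cells, against 134 CPM in Sox2+ cells. Its fall was larger in FGF/CHIR, a difference between media of -4.30 ± 0.34 (adjusted p = 1.76e-04). Pla2g7, an enzyme that degrades platelet-activating factor, was at 7.43 CPM in FGF DN cells, against 31.00 and 67.6 CPM in FGF Sox2+ cells, and, in FGF/CHIR, 9.37 CPM in DN cells, against 108 CPM in Sox2+ cells. Celsr1, a cadherin of planar cell polarity, was at 14.7 CPM in FGF DN cells, against 63.7 and 81.4 CPM in FGF Sox2+ cells, and, in FGF/CHIR, 5.03 CPM in DN cells, against 39.99 CPM in Sox2+ cells. Its relative Celsr2 was at 14.03 CPM in FGF DN cells, against 91.7 and 150.2 CPM in FGF Sox2+ cells, and, in FGF/CHIR, 4.34 CPM in DN cells, against 22.9 CPM in Sox2+ cells. Sfrp2, a secreted inhibitor of WNT ligands, was at 31.99 CPM in FGF DN cells, against 268 and 472 CPM in FGF Sox2+ cells, and, in FGF/CHIR, 21.5 CPM in DN cells, against 68.6 CPM in Sox2+ cells. Differences were -2.93 ± 0.41 for Pla2g7, -2.49 ± 0.24 for Celsr1, -2.57 ± 0.37 for Celsr2 and -2.53 ± 0.67 for Sfrp2. The Sfrp2 call had an adjusted p of 0.0348 and was lost when any 1 of 6 libraries was left out, with the highest adjusted p, 0.0669, without FGF Sox2+ replicate 2. The other 5 were the 3 NMP libraries and the 2 Tbxt 48 h libraries.

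Hox genes, which record position along the body axis, were lower in DN cells up to paralog group 9. In the averaged comparison, of groups 1 to 4, 9 of 12 were lower (median -1.97), and of groups 5 to 9, 12 of 14 were lower (median -1.66). The counts were 6 and 11 in FGF and 4 and 5 in FGF/CHIR, beside 9.17% and 1.25% of all genes. None of these genes was higher. Of groups 10 to 13, 1 of 11 was lower (median -0.16), and this call, Hoxc10, was lost with median-of-ratios scaling, with quantile normalization, with 0.25 CPM added, with no filter on low values, and without NMP replicate 2 or FGF Sox2+ replicate 2. The averaged counts of the first 2 sets were 9 and 11 with median-of-ratios scaling, and 1 and 3 in the fit with gate and medium as separate terms. Whether the 3 sets differ was not tested. Hoxc4 was at 3.71 CPM in FGF DN cells, against 19.96 and 15.03 CPM in FGF Sox2+ cells, and, in FGF/CHIR, 4.57 CPM in DN cells, against 45.5 CPM in Sox2+ cells. Hoxb3 was at 5.57 CPM in FGF DN cells, against 33.97 and 47.6 CPM in FGF Sox2+ cells, and, in FGF/CHIR, 15.3 CPM in DN cells, against 82.95 CPM in Sox2+ cells. Hoxa7 was at 7.43 CPM in FGF DN cells, against 35.03 and 31.3 CPM in FGF Sox2+ cells, and, in FGF/CHIR, 23.5 CPM in DN cells, against 113 CPM in Sox2+ cells. Hoxc9 was at 10.5 CPM in FGF DN cells, against 38.2 and 31.3 CPM in FGF Sox2+ cells, and, in FGF/CHIR, 19.3 CPM in DN cells, against 79.4 CPM in Sox2+ cells. DN cells were below every Sox2+ library of their medium for all 4, an order that the rule naming Hoxb3 requires. The differences were -2.51 ± 0.18 for Hoxc4, -2.51 ± 0.39 for Hoxb3, -2.12 ± 0.22 for Hoxa7 and -1.81 ± 0.21 for Hoxc9 (adjusted p = 1.79e-06, 0.00146, 5.28e-05 and 9.93e-05).

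Posterior Hox genes were low in FGF and were expressed in both gates in FGF/CHIR. Hoxd13 was at 1.24 CPM in FGF DN cells, against 0.637 and 2.50 CPM in FGF Sox2+ cells, and, in FGF/CHIR, 84.6 CPM in DN cells, against 91.6 CPM in Sox2+ cells. Hoxa10 was at 8.46 CPM in FGF DN cells, against 6.37 and 15.03 CPM in FGF Sox2+ cells, and, in FGF/CHIR, 86.9 CPM in DN cells, against 94.6 CPM in Sox2+ cells. Hoxc13 was at 10.7 CPM in FGF/CHIR DN cells, against 106 CPM in FGF/CHIR Sox2+ cells, and did not pass in FGF/CHIR alone. Its averaged difference, -0.70 ± 0.65, also takes in the FGF libraries and did not pass. The antisense transcript Hoxaas3 was at 13.2 CPM in FGF DN cells, against 46.3 and 48.8 CPM in FGF Sox2+ cells, and, in FGF/CHIR, 2.97 CPM in DN cells, against 44.9 CPM in Sox2+ cells. The antisense transcript Hoxb5os was at 6.19 CPM in FGF DN cells, against 50.96 and 45.1 CPM in FGF Sox2+ cells, and, in FGF/CHIR, 10.1 CPM in DN cells, against 133 CPM in Sox2+ cells. Both fell, with differences of -2.65 ± 0.20 and -3.18 ± 0.76. The strand setting of the authors' counting is not given, so reads of a Hox gene and its antisense partner may have been mixed. With a pseudocount of 0.25 the Hoxb5os test gave an adjusted p of 0.0992.

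**Figure D4:**
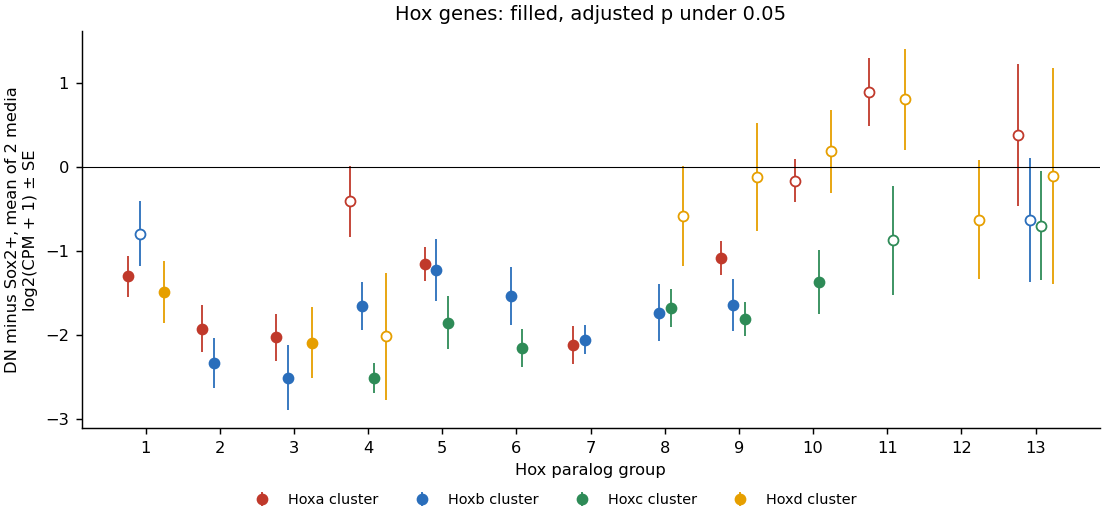
Averaged DN minus Sox2+ difference, log2(CPM + 1) ± SE, of the 37 tested Hox genes by paralog group (x axis) and cluster (colour); filled points had an adjusted p under 0.05. Filled points lie between -1.08 and -2.51 and are found in groups 1 to 10.

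Some mesenchymal genes rose in FGF/CHIR. Of 15 tested, 6 were higher in DN cells in FGF/CHIR and 1 in FGF, beside 2.26% and 6.61% of all genes, and 0 were lower in either medium. In the averaged comparison 6 were higher, and 1 in the fit with gate and medium as separate terms. Lum, the collagen-binding proteoglycan lumican, was at 0.206 CPM in FGF DN cells, against 0 and 1.25 CPM in FGF Sox2+ cells, and, in FGF/CHIR, 54.6 CPM in DN cells, against 0.617 CPM in Sox2+ cells. Dcn, the related decorin, was at 1.65 CPM in FGF DN cells, against 1.06 and 1.25 CPM in FGF Sox2+ cells, and, in FGF/CHIR, 13.5 CPM in DN cells, against 0.617 CPM in Sox2+ cells. The differences in FGF/CHIR exceeded those in FGF by 5.42 ± 0.76 for Lum and 2.86 ± 0.66 for Dcn (adjusted p = 0.00319 and 0.0407). Pdgfrb, a receptor of pericytes and fibroblasts, was at 8.05 CPM in FGF DN cells, against 7.22 and 3.76 CPM in FGF Sox2+ cells, and, in FGF/CHIR, 74.5 CPM in DN cells, against 10.9 CPM in Sox2+ cells. Pdgfra, the receptor that mesenchyme shares with primitive endoderm, was at 163 CPM in FGF DN cells, against 2.34 and 6.26 CPM in FGF Sox2+ cells, and, in FGF/CHIR, 54.9 CPM in DN cells, against 2.57 CPM in Sox2+ cells. It was the single member called in FGF. Its averaged difference was 4.51 ± 0.36 (adjusted p = 4.41e-06). Twist1 and Prrx1, transcription factors of mesenchyme, were present in both gates in FGF/CHIR. Twist1 was at 582 CPM in FGF/CHIR DN cells, against 179 CPM in FGF/CHIR Sox2+ cells, and Prrx1 at 316 CPM in FGF/CHIR DN cells, against 61.3 CPM in FGF/CHIR Sox2+ cells. Neither passed in FGF/CHIR, with differences of 1.70 ± 0.57 and 2.35 ± 0.96. In the 3 Tbxt-derived DN libraries, also grown in FGF/CHIR, Lum was at 143 to 279 CPM, Twist1 at 956 to 1862 CPM and Prrx1 at 832 to 896 CPM.

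The calls among matrix genes were also more numerous in FGF/CHIR. Of 18 tested, 8 were higher in FGF/CHIR and 3 in FGF, beside 2.26% and 6.61% of all genes. In the averaged comparison 8 were higher, and 1 in the fit with gate and medium as separate terms. Tnc, the glycoprotein tenascin-C, was at 25.8 CPM in FGF DN cells, against 9.13 and 6.26 CPM in FGF Sox2+ cells, and, in FGF/CHIR, 181 CPM in DN cells, against 2.67 CPM in Sox2+ cells. It was called in both media. Col6a3, a chain of type VI collagen, was at 0.413 CPM in FGF DN cells, against 0.425 and 3.76 CPM in FGF Sox2+ cells, and, in FGF/CHIR, 58.5 CPM in DN cells, against 1.95 CPM in Sox2+ cells. Col6a2 was at 1.03 CPM in FGF DN cells, against 2.34 and 7.51 CPM in FGF Sox2+ cells, and, in FGF/CHIR, 17.6 CPM in DN cells, against 0.720 CPM in Sox2+ cells. Thbs2, the secreted thrombospondin-2, was at 4.54 CPM in FGF DN cells, against 6.16 and 6.26 CPM in FGF Sox2+ cells, and, in FGF/CHIR, 29.5 CPM in DN cells, against 0.720 CPM in Sox2+ cells. For all 4 the difference was larger in FGF/CHIR, by 3.98 ± 0.54 for Tnc, 5.21 ± 0.83 for Col6a3, 4.83 ± 0.82 for Col6a2 and 4.53 ± 1.01 for Thbs2 (adjusted p = 0.00286, 0.00656, 0.00968 and 0.0345). Of the fibrillar collagens, Col1a1 was at 86.3 CPM in FGF DN cells, against 25.5 and 207 CPM in FGF Sox2+ cells, and, in FGF/CHIR, 138 CPM in DN cells, against 29.6 CPM in Sox2+ cells, and it did not pass (1.207 ± 0.98). Without FGF Sox2+ replicate 1, 4 matrix genes were called lower in FGF DN cells, against 0 with it. Col3a1 was at 102 CPM in FGF DN cells, against 14.2 and 56.3 CPM in FGF Sox2+ cells, and, in FGF/CHIR, 1152 CPM in DN cells, against 259 CPM in Sox2+ cells. It rose in the averaged comparison, by 1.97 ± 0.42, and in FGF, and did not pass in FGF/CHIR.

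Of the lateral plate and limb genes, 5 of 11 tested were higher, beside 7.12% of all genes, and 0 were lower. In the fit with gate and medium as separate terms 2 were higher. Of the 11, 3 passed the filter on low values only through the DN libraries, Gata4 and Gata6 among them. These 3 had to be high in a DN library to be tested, so the count is no support. Gata4 and Gata6, 2 of the 5, are also endoderm factors. The other 3 were Hand2, Bmp4 and Prrx2, called in FGF/CHIR alone. Hand2, a factor of limb and heart mesoderm, was at 1.24 CPM in FGF DN cells, against 0.637 and 0 CPM in FGF Sox2+ cells, and, in FGF/CHIR, 34.7 CPM in DN cells, against 2.57 CPM in Sox2+ cells. Bmp4 was at 17.95 CPM in FGF DN cells, against 19.3 and 14.4 CPM in FGF Sox2+ cells, and, in FGF/CHIR, 217 CPM in DN cells, against 22.2 CPM in Sox2+ cells. Prrx2 was at 5.37 CPM in FGF DN cells, against 7.22 and 7.51 CPM in FGF Sox2+ cells, and, in FGF/CHIR, 72.5 CPM in DN cells, against 9.35 CPM in Sox2+ cells. Differences between the media were 3.13 ± 0.64 for Bmp4 and 3.22 ± 0.72 for Prrx2 (adjusted p = 0.0247 and 0.0347), and that of Hand2 did not pass (2.52 ± 0.69). The skeletal muscle factors Myod1 and Myog were at 0 in all 5 libraries. Among contractile smooth muscle genes 1 of 10 rose, Cald1 (1.31 ± 0.33), and that call was lost without FGF Sox2+ replicate 2. Acta2 was at 309 CPM in FGF DN cells, against 35.7 and 15.3 CPM in FGF Sox2+ cells, and, in FGF/CHIR, 118 CPM in DN cells, against 27.1 CPM in Sox2+ cells, and it did not pass (adjusted p = 0.0905).

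Among the genes with the largest differences between media, by the rule for named genes, Crabp1 came first. Crabp1, a carrier of retinoic acid in the cytoplasm, was at 89.6 CPM in FGF DN cells, against 688 and 1512 CPM in FGF Sox2+ cells, and, in FGF/CHIR, 202 CPM in DN cells, against 27.03 CPM in Sox2+ cells. It fell in FGF DN cells and rose in FGF/CHIR DN cells, a difference between media of 6.35 ± 0.81 (adjusted p = 0.00337). Casz1, a zinc finger factor, was at 6.60 CPM in FGF DN cells, against 37.6 and 75.1 CPM in FGF Sox2+ cells, and, in FGF/CHIR, 25.6 CPM in DN cells, against 2.16 CPM in Sox2+ cells. St8sia2, which adds polysialic acid to proteins of neural cells, was at 1.44 CPM in FGF DN cells, against 11.04 and 31.3 CPM in FGF Sox2+ cells, and, in FGF/CHIR, 18.97 CPM in DN cells, against 2.16 CPM in Sox2+ cells. Lrrn1, a transmembrane protein with leucine-rich repeats, was at 4.33 CPM in FGF DN cells, against 36.3 and 63.9 CPM in FGF Sox2+ cells, and, in FGF/CHIR, 8.69 CPM in DN cells, against 0.822 CPM in Sox2+ cells. These 4 were called lower in FGF and higher in FGF/CHIR. Irx5, an Iroquois factor, was at 9.91 CPM in FGF DN cells, against 80.7 and 72.6 CPM in FGF Sox2+ cells, and, in FGF/CHIR, 29.9 CPM in DN cells, against 3.70 CPM in Sox2+ cells. Htra1, a secreted protease, was at 18.8 CPM in FGF DN cells, against 34.2 and 28.8 CPM in FGF Sox2+ cells, and, in FGF/CHIR, 116 CPM in DN cells, against 1.75 CPM in Sox2+ cells. The differences between media were 5.91 ± 0.94 for Casz1, 5.67 ± 0.83 for St8sia2, 5.62 ± 0.80 for Lrrn1, 5.55 ± 1.17 for Irx5 and 6.12 ± 1.34 for Htra1. Those of Irx5 (adjusted p = 0.0355) and Htra1 (adjusted p = 0.0414) were lost without any 1 of 8 libraries, the 3 NMP, the 2 Sox2 48 h and the 2 Tbxt 48 h libraries and FGF Sox2+ replicate 2 (adjusted p = 0.0689 and 0.0757 without the last). That of Htra1 was also lost without FGF Sox2+ replicate 1 (adjusted p = 0.0544).

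In the other direction, the differences were larger in FGF. Epas1, the hypoxia-inducible factor HIF-2 alpha, was at 462 CPM in FGF DN cells, against 1.49 and 7.51 CPM in FGF Sox2+ cells, and, in FGF/CHIR, 6.86 CPM in DN cells, against 3.70 CPM in Sox2+ cells. Adamts9, a secreted protease of the matrix, was at 443 CPM in FGF DN cells, against 15.1 and 12.5 CPM in FGF Sox2+ cells, and, in FGF/CHIR, 18.97 CPM in DN cells, against 22.7 CPM in Sox2+ cells. Kit, the receptor of stem cell factor, was at 235 CPM in FGF DN cells, against 11.7 and 18.8 CPM in FGF Sox2+ cells, and, in FGF/CHIR, 5.03 CPM in DN cells, against 7.50 CPM in Sox2+ cells. These 3 genes were high in FGF DN cells and at or under 22.7 CPM in the other 4 libraries. Fgf8, a ligand of the primitive streak and tail bud, was at 36.5 CPM in FGF DN cells, against 7.01 and 2.50 CPM in FGF Sox2+ cells, and, in FGF/CHIR, 0 CPM in DN cells, against 4.42 CPM in Sox2+ cells. It was called higher in FGF and lower in FGF/CHIR. Differences between media were -5.91 ± 1.00 for Epas1, -5.16 ± 0.73 for Adamts9, -5.26 ± 0.80 for Fgf8, -4.39 ± 0.56 for Kit and -4.44 ± 0.67 for T (adjusted p = 0.0101, 0.00319, 0.00559, 0.0021 and 0.00536). With Cdx1, described above, they complete the 6 named in this direction.

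Some markers of endothelium were also found in FGF DN cells, while the blood factor Runx1 was highest of the 5 libraries in FGF/CHIR DN cells. Flt1, a VEGF receptor of endothelium and trophoblast, was at 191 CPM in FGF DN cells, against 5.31 and 8.76 CPM in FGF Sox2+ cells, and, in FGF/CHIR, 15.8 CPM in DN cells, against 0.103 CPM in Sox2+ cells. Cdh5, the endothelial cadherin, was at 43.5 CPM in FGF DN cells, against 0.425 and 0 CPM in FGF Sox2+ cells, and, in FGF/CHIR, 1.83 CPM in DN cells, against 0.103 CPM in Sox2+ cells, and it was not tested because it passed 5 CPM in 1 library. Tek, an angiopoietin receptor, was at 11.8 CPM in FGF DN cells, against 0 in both FGF Sox2+ libraries, and likewise was not tested. Runx1, a factor of blood formation, was at 15.9 CPM in FGF DN cells, against 3.61 and 3.76 CPM in FGF Sox2+ cells, and, in FGF/CHIR, 66.97 CPM in DN cells, against 4.93 CPM in Sox2+ cells. Ptprc and Hbb-bh1, which define blood cells, were at 0 in the 5 libraries. Pecam1 and Tie1, which define endothelium, were at most 2.55 and 2.50 CPM in the 5 libraries. Both tested members of the list of 14, Flt1 and Runx1, rose, Runx1 without passing in either medium or without FGF Sox2+ replicate 2. The summed list was at 269.7 CPM in FGF DN cells, against 16.3 and 21.3 CPM in FGF Sox2+ cells, and, in the other medium, 85.7 CPM in FGF/CHIR DN cells, against 7.09 CPM in FGF/CHIR Sox2+ cells. The part of such cells in the differences was not tested.

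Signalling genes gave smaller and mixed counts, and the fit with gate and medium as separate terms left 0 calls of the BMP and TGF-beta, FGF and ERK and Hedgehog lists, 1 rise of the WNT list and 2 rises of the PDGF, IGF and imprinted list. Of the BMP and TGF-beta genes 4 of 24 were higher and 1 was lower, beside 7.12% higher and 6.99% lower among all genes. The ligand Bmp2 was at 51.6 CPM in FGF DN cells, against 2.12 and 1.25 CPM in FGF Sox2+ cells, and, in FGF/CHIR, 109 CPM in DN cells, against 30.2 CPM in Sox2+ cells, a rise of 3.07 ± 0.36 (adjusted p = 1.43e-04). Id1, Id2 and Id3, targets of BMP signalling, were called lower in FGF, and their differences between media were 2.63 ± 0.53, 2.38 ± 0.34 and 2.29 ± 0.48 (adjusted p = 0.0247, 0.00337 and 0.0278). Id3, as an example, was at 145 CPM in FGF DN cells, against 303 and 567 CPM in FGF Sox2+ cells, and, in FGF/CHIR, 757 CPM in DN cells, against 439 CPM in Sox2+ cells. Of the WNT genes 3 of 23 were higher and 2 lower, beside the same shares of all genes. Dkk2, a secreted WNT modulator, was at 2.89 CPM in FGF DN cells, against 0.637 and 0 CPM in FGF Sox2+ cells, and, in FGF/CHIR, 31.9 CPM in DN cells, against 0.514 CPM in Sox2+ cells, and rose by 3.02 ± 0.32 (adjusted p = 5.76e-05). Lef1, which WNT activity induces, was at 35.1 CPM in FGF DN cells, against 55.4 and 71.4 CPM in FGF Sox2+ cells, and, in FGF/CHIR, 288 CPM in DN cells, against 227 CPM in Sox2+ cells, and its averaged difference was -0.24 ± 0.16 and did not pass.

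Of the FGF and ERK genes 2 of 20 were higher and 2 lower, near the 7.12% and 6.99% of all genes. Of the receptors, Fgfr4 rose by 2.51 ± 0.35 and was at 38.8 CPM in FGF DN cells, against 7.43 and 3.76 CPM in FGF Sox2+ cells, and, in FGF/CHIR, 5.71 CPM in DN cells, against 0.308 CPM in Sox2+ cells. Fgfr1 was at 64.4 CPM in FGF DN cells, against 164 and 165 CPM in FGF Sox2+ cells, and, in FGF/CHIR, 121 CPM in DN cells, against 132 CPM in Sox2+ cells. Fgfr1 fell, with a difference of -0.73 ± 0.17. Hedgehog genes were lower in FGF, 7 of 9 tested, and 0 were lower in FGF/CHIR. Gas1, a surface protein that binds Hedgehog, was at 60.05 CPM in FGF DN cells, against 225 and 228 CPM in FGF Sox2+ cells, and, in FGF/CHIR, 234 CPM in DN cells, against 102 CPM in Sox2+ cells, and its difference between media was 3.09 ± 0.33 (adjusted p = 0.00122). Of the PDGF, IGF and imprinted genes 5 of 18 were higher and 2 lower, beside 7.12% and 6.99% of all genes. Igf1 was at 11.97 CPM in FGF DN cells, against 0.212 and 0 CPM in FGF Sox2+ cells, and, in FGF/CHIR, 29.3 CPM in DN cells, against 0.411 CPM in Sox2+ cells, and rose by 3.99 ± 0.35 (adjusted p = 1.07e-05). Mest, an imprinted gene, was at 298 CPM in FGF DN cells, against 1449 and 2086 CPM in FGF Sox2+ cells, and, in FGF/CHIR, 1118 CPM in DN cells, against 743 CPM in Sox2+ cells, and its difference between media was 3.13 ± 0.35 (adjusted p = 0.00125).

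Part of the cell cycle genes were lower in DN cells. Of 18 tested, 7 were lower and 0 higher in the averaged comparison, 9 were lower in FGF, and 0 changed in FGF/CHIR, where limma gave 1 an unadjusted p under 0.05. Top2a, the topoisomerase of dividing cells, was at 147 CPM in FGF DN cells, against 313 and 233 CPM in FGF Sox2+ cells, and, in FGF/CHIR, 195 CPM in DN cells, against 252 CPM in Sox2+ cells. Plk1, a mitotic kinase, was at 47.7 CPM in FGF DN cells, against 91.5 and 81.4 CPM in FGF Sox2+ cells, and, in FGF/CHIR, 57.1 CPM in DN cells, against 76.1 CPM in Sox2+ cells. The differences were small, -0.62 ± 0.17 for Top2a and -0.62 ± 0.14 for Plk1. With median-of-ratios scaling, and again without FGF Sox2+ replicate 1, 3 genes were lower, and the fit with gate and medium as separate terms left 0.

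**Figure D5:**
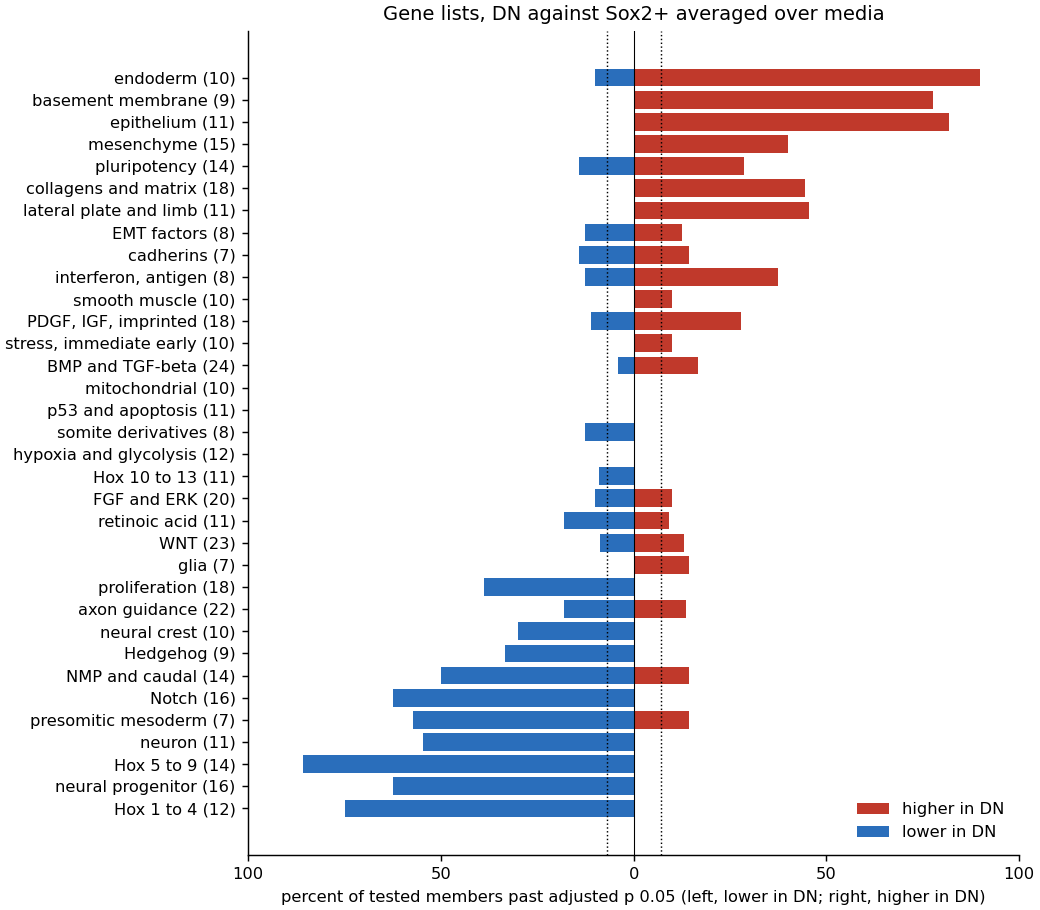
Percent of the tested members of each gene list with at least 7 tested that were higher (red, right) or lower (blue, left) in DN cells in the averaged comparison, with the number tested in parentheses, ordered by the median difference; dotted lines mark 7.12% higher and 6.99% lower over all 12943 genes. Endoderm, basement membrane and epithelium stand at the top with 9 of 10, 7 of 9 and 9 of 11 members higher. The Hox lists up to group 9, the neural progenitor list and the neuron list stand at the bottom. Of the tested members, 7 of endoderm, 3 of lateral plate and limb and 2 of epithelium passed the filter on low values only through the DN libraries. Members of some other lists did so too, and such bars are a description and no support.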

How the data were processed

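Poly-A RNA of 15 libraries in 8 groups was sequenced. Priming was by oligo-dT, with tagmentation and unique molecular identifiers, per the labels' protocols. Reads were aligned with STAR 2.7 to GRCm39 and handled with SAMtools 1.21, per the submitters' processing notes. For the annotation, the counting step, its strand setting and the use of the identifiers, details are not given in these sources. The authors deposited 1 CPM value per gene and library, with no length correction. Rows without a name held 1.13 to 1.23% of the 5 compared libraries and were left out. Values were not whole multiples of 1 read throughout (71.1 to 78.7% within 0.01 reads), so no count test was run.

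limma 3.58.1 (R 4.3.3, trend and robust, two-sided, Benjamini-Hochberg) was fitted to log2(CPM + 1) of 12943 genes in all 15 libraries, with 1 mean per group, no block and 7 residual degrees of freedom. The script was tested on simulated data. Named genes were Sox2 and T, the 12 largest called averaged changes per direction (DN beyond every Sox2+ library in both media, at least 20 CPM in the higher group), the 6 largest called differences between media per direction, and members of 35 gene lists (415 of 500 genes tested). 1 list member is counted but not reported singly here. Predicted genes were left out of the ranked sets. The comparison and lists were chosen with earlier results of these data known, so they are no independent support. Promoters came from RefSeq (GRCm38.p6). The alternatives are given in the closing section.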

Additional observations from a re-analysis of the deposited data

Results flagged for a closer look

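The DN minus Sox2+ difference itself differed between the 2 media, by limma's test of FGF/CHIR minus FGF at an adjusted p under 0.05, for 44 of the genes named here. The values below are on the log2(CPM + 1) scale, and each medium has 1 DN library.

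Among the genes ranked highest for this difference, it was 6.35 for Crabp1, 6.12 for Htra1, 5.91 for Casz1, 5.67 for St8sia2, 5.62 for Lrrn1 and 5.55 for Irx5. In the other direction it was -5.91 for Epas1, -5.47 for Cdx1, -5.26 for Fgf8, -5.16 for Adamts9, -4.44 for T and -4.39 for Kit.

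Neural and signalling genes with a difference above 0 were Pou3f3 (4.79), Pax6 (3.87), Cyp26b1 (3.74), Zic1 (3.34), Mest (3.13), Gas1 (3.09), Dkk2 (2.84), Id1 (2.63), Id2 (2.38), Id3 (2.29), Zeb2 (2.34), Msi1 (2.21) and Cdh2 (1.61). All but Dkk2 and Gas1 were lower in DN cells in FGF and did not pass in FGF/CHIR.

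Mesenchymal and matrix genes with a difference above 0 were Lum (5.42), Col6a3 (5.21), Col6a2 (4.83), Thbs2 (4.53), Tnc (3.98), Prrx2 (3.22), Bmp4 (3.13) and Dcn (2.86). All 8 were higher in DN cells in FGF/CHIR, and the endoderm gene Amn (4.71) was as well.

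Genes with a difference under 0 included the caudal genes Cdx2 (-3.78) and Cdx4 (-3.42), the forkhead gene Foxb1 (-4.30), the antisense transcript Hoxaas3 (-1.76) and Lin28a (-2.73), which were lower in DN cells in FGF/CHIR. Egln3 (-2.99) was higher in DN cells in FGF and did not pass in FGF/CHIR. The laminin genes Lamc1 (-3.65), Lama1 (-3.61) and Lamb1 (-3.54) and the gene Glipr1 (-3.88) were higher in DN cells in FGF by a larger amount than in FGF/CHIR.

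Rows without a gene name, which no comparison used, held up to 1.23% of the CPM in the 5 compared libraries.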

How the results depend on the processing

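The counts of called genes were 1826 averaged, 2043 in FGF, 454 in FGF/CHIR and 316 for the difference between media. They stayed within 1.5 times with 0.25 or 4 CPM added, a filter of 20 CPM, median-of-ratios scaling and quantile normalization. Without a filter they were 867 in FGF/CHIR and 1229 for the difference. Array weights gave 4032 averaged, 2377 in FGF/CHIR and 1444 for the difference. The fit of the 5 libraries alone gave 1179 averaged, 1323 in FGF and 185 for the difference, and the fit with gate and medium as separate terms gave 129 averaged. A 2-fold minimum change left 184, 270, 90 and 38. Beyond the construction of these fits, the cause was not tested. Leaving out 1 replicate each gave 1414 to 2584 averaged, 1258 to 2740 in FGF, 316 to 865 in FGF/CHIR and 184 to 708 for the difference, with a lone remaining library assumed to vary like the other groups. With a replicate block the counts were 1467, 1628, 362 and 194. Deviations of same-numbered libraries had a correlation over 0.1 in 4 of 21 pairs (from -0.188 to 0.48), against 14 of 36 pairs with unlike numbers. The highest were NMP with Tbxt 48 h, 0.48 for replicates 1 and 0.457 for replicates 2. In a group of 2 libraries the deviations mirror each other, so the pairs are not independent. Whether the numbers pair the libraries is therefore not settled. Of 110 averaged changes and 12 differences of named genes, 0 reversed under these alternatives. Only 29 of the 110 and 7 of the 12 kept the same result in every alternative in which they were tested. Of the 12, 3 lost the call under the 2-fold minimum and 2 with 4 CPM added. Of the 110, 76 lost the call in the fit with gate and medium as separate terms, 60 under the 2-fold minimum, 21 with the 5 libraries alone, 10 without a filter, 8 with 0.25 CPM added, 7 with the replicate block, 6 with median-of-ratios scaling, and 57 of 1320 leave-one-out tests were lost. The depth of FGF Sox2+ replicate 2, 0.799 M reads, limits low genes in FGF, where 3 reads are 3.76 CPM. These limits cover counting error only.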

Other observations

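A few single genes on none of the lists were chosen after their values were seen. They are no list, other genes of their kind were not counted, and they show nothing of uptake or lysosomal genes as a group. All 7 were called higher in both media and in the averaged comparison (limma, adjusted p under 0.05). Lrp2, the receptor megalin that works with cubilin, was at 112 CPM in FGF DN cells, against 39.5 and 33.8 CPM in FGF Sox2+ cells, and, in FGF/CHIR, 61.9 CPM in DN cells, against 2.36 CPM in Sox2+ cells. Lrpap1, its chaperone, was at 552 CPM in FGF DN cells, against 26.2 and 33.2 CPM in FGF Sox2+ cells, and, in FGF/CHIR, 279 CPM in DN cells, against 22.4 CPM in Sox2+ cells. Their averaged differences were 2.91 ± 0.35 and 3.88 ± 0.21 (limma, adjusted p = 1.49e-04 and 3.66e-07). Ctsl, the lysosomal protease cathepsin L, was at 1626 CPM in FGF DN cells, against 186 and 172 CPM in FGF Sox2+ cells, and, in FGF/CHIR, 898 CPM in DN cells, against 191 CPM in Sox2+ cells. Lgmn, the lysosomal protease legumain, was at 147 CPM in FGF DN cells, against 26.5 and 31.3 CPM in FGF Sox2+ cells, and, in FGF/CHIR, 114 CPM in DN cells, against 20.2 CPM in Sox2+ cells. Ctsz was at 47.3 CPM in FGF DN cells, against 14.4 and 17.5 CPM in FGF Sox2+ cells, and, in FGF/CHIR, 53.9 CPM in DN cells, against 7.20 CPM in Sox2+ cells. Lamp1, a protein of the lysosomal membrane, was at 346 CPM in FGF DN cells, against 132 and 143 CPM in FGF Sox2+ cells, and, in FGF/CHIR, 263 CPM in DN cells, against 146 CPM in Sox2+ cells. Tcn2, which carries vitamin B12, was at 45.5 CPM in FGF DN cells, against 8.60 and 13.8 CPM in FGF Sox2+ cells, and, in FGF/CHIR, 33.1 CPM in DN cells, against 7.61 CPM in Sox2+ cells. The DN library of each medium lay above the Sox2+ libraries of that medium for all 7.

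Lists of cell state gave few calls, to be read beside 7.12% higher and 6.99% lower among all genes in the averaged comparison. Of the p53 and apoptosis genes 0 of 11 tested changed in the averaged comparison with limma, and 1 had an unadjusted p under 0.05. Of the hypoxia and glycolysis genes 0 of 12 changed, and 2 had an unadjusted p under 0.05. Within media their medians were 0.66 in FGF, with 10 of 12 above 0 and 1 called higher, and -1.10 in FGF/CHIR, with 12 of 12 below 0, 0 called and 5 at an unadjusted p under 0.05. FGF/CHIR minus FGF had a median of -1.60, with 12 of 12 below 0 and 1 called, Egln3, an oxygen sensor that hypoxia induces, which was also the call in FGF. It was at 13.4 CPM in FGF DN cells, against 4.88 and 3.76 CPM in FGF Sox2+ cells, and, in FGF/CHIR, 1.14 CPM in DN cells, against 5.24 CPM in Sox2+ cells, with a difference between media of -2.99 ± 0.57 (adjusted p = 0.0192). Cdkn1a, a cell cycle inhibitor that p53 induces, was at 316 CPM in FGF DN cells, against 118 and 189 CPM in FGF Sox2+ cells, and, in FGF/CHIR, 544 CPM in DN cells, against 563 CPM in Sox2+ cells. Of the stress and immediate early genes 1 of 10 rose, Atf3. It was at 37.8 CPM in FGF DN cells, against 3.61 and 3.76 CPM in FGF Sox2+ cells, and, in FGF/CHIR, 10.7 CPM in DN cells, against 5.24 CPM in Sox2+ cells. Of the mitochondrial genes 0 of 10 changed, and 1 had an unadjusted p under 0.05. Their summed level was 30640.0 CPM in FGF DN cells, against 30755 and 31138 CPM in FGF Sox2+ cells, and, in FGF/CHIR, 37212 CPM in DN cells, against 31301 CPM in Sox2+ cells.

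The remaining list counts also stand beside 7.12% higher and 6.99% lower among all genes. Of the antigen and interferon genes 3 of 8 tested were higher, B2m, Bst2 and H2-D1, and 1 was lower, Ifitm1. B2m, the light chain of class I molecules, was at 189 CPM in FGF DN cells, against 100.2 and 116 CPM in FGF Sox2+ cells, and, in FGF/CHIR, 168 CPM in DN cells, against 84.7 CPM in Sox2+ cells. Of the somite genes 1 of 8 tested fell, Pax7, which the neural tube also expresses. Among cadherins, Cdh2, the N-cadherin of neural and mesenchymal cells, was at 21.05 CPM in FGF DN cells, against 102 and 123.3 CPM in FGF Sox2+ cells, and, in FGF/CHIR, 56.9 CPM in DN cells, against 96.4 CPM in Sox2+ cells. It fell, with a difference of -1.55 ± 0.19 (adjusted p = 1.83e-04), and the difference between media was 1.61 ± 0.38 (adjusted p = 0.0465). Of the EMT factors 1 of 8 rose, Snai1, and 1 fell, Zeb2. Snai1 was at 149 CPM in FGF DN cells, against 11.04 and 8.76 CPM in FGF Sox2+ cells, and, in FGF/CHIR, 82.3 CPM in DN cells, against 14.1 CPM in Sox2+ cells. Zeb2 was at 18.8 CPM in FGF DN cells, against 66.7 and 90.1 CPM in FGF Sox2+ cells, and, in FGF/CHIR, 38.6 CPM in DN cells, against 30.2 CPM in Sox2+ cells. Of the axon guidance genes 3 of 22 tested rose and 4 fell. Slit1, a secreted repellent, was at 1.24 CPM in FGF DN cells, against 7.86 and 18.8 CPM in FGF Sox2+ cells, and, in FGF/CHIR, 0 CPM in DN cells, against 11.5 CPM in Sox2+ cells. Of the retinoic acid genes 1 of 11 rose, Cyp26a1, and 2 fell, Crabp2 and Cyp26b1. Cyp26b1 was at 3.92 CPM in FGF DN cells, against 39.5 and 67.6 CPM in FGF Sox2+ cells, and, in FGF/CHIR, 35.9 CPM in DN cells, against 28.5 CPM in Sox2+ cells.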
